A study of Mus musculus with 14 samples.

Results

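The aspartate-using enzymes described here were 9 genes of the deposited count table, found by their symbols: *Got1*, *Got2*, *Mdh1*, *Mdh2*, *Cad*, *Umps*, *Dhodh*, *Ass1* and *Asl*. All 9 were among the 19525 genes of the table and had reads in each of the 14 libraries. RNA was sequenced from the cytosolic lysate of spheroids of 4T1, a mouse triple-negative breast cancer line, grown for 5 days in lung-like medium, whose nutrients resemble those of the fluid around lung cells. Cells with a scrambled hairpin received 700 µM aspartate (ASP shSCR, n = 4) or no added aspartate (NoASP shSCR, n = 3), and cells with a hairpin against *Grin2d* (ASP shGRIN2D, n = 3) or *Dhps* (ASP shDHPS, n = 4) received 700 µM aspartate. All 4 groups therefore carried a lentiviral hairpin, each in a polyclonal population selected with puromycin. *Grin2d* encodes a subunit of the NMDA receptor, an ion channel that can bind aspartate, and *Dhps* the first enzyme of the hypusine modification of eIF5A, a translation factor. Neither knockdown was grown without aspartate.

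Aspartate is made and used by few enzymes. The transaminases *Got1*, in the cytosol, and *Got2*, in mitochondria, move an amino group between aspartate and glutamate. The malate dehydrogenases *Mdh1* (cytosol) and *Mdh2* (mitochondria) interconvert oxaloacetate and malate. These enzymes form the malate-aspartate shuttle, which carries the reducing power of NADH into mitochondria. In pyrimidine synthesis, *Cad* joins carbamoyl phosphate to aspartate and closes the ring, *Dhodh* oxidizes dihydroorotate at the inner mitochondrial membrane, and *Umps* turns orotate into UMP. *Ass1* joins aspartate to citrulline, and *Asl* splits the resulting argininosuccinate into arginine and fumarate. *Dhodh*, *Umps*, *Asl* and the malate dehydrogenases do not bind aspartate themselves but act on the products or partners of those reactions.

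Libraries held 12731123 to 23231378 counts, and levels are given as CPM, for which each library was scaled to the same total with TMM factors. *Dhps* measured 6.93 ± 1.74 CPM (SD, n = 4) in ASP shDHPS and 19.4 ± 2.28 CPM (SD, n = 4) in ASP shSCR (log2 fold change -1.48, adjusted p = 8.31e-06 in the edgeR quasi-likelihood test with Benjamini-Hochberg adjustment). *Grin2d* had few reads and measured 2.46 ± 0.590 CPM (SD, n = 3) in ASP shGRIN2D and 3.60 ± 0.423 CPM (SD, n = 4) in ASP shSCR, which did not pass the test (log2 fold change -0.55, edgeR adjusted p = 0.516). On the first principal component, replicate 2 of both shSCR groups lay at -25.8 and -19.7, apart from the 5 other shSCR libraries (-8.66 to 6.28), and ASP shDHPS replicate 1 lay at the other end (27.6). The summed level of 6 epithelial markers was 4130 to 4320 CPM in the shSCR libraries, 3200 to 3450 CPM in ASP shGRIN2D and 3270 to 3810 CPM in ASP shDHPS. Markers of leukocytes (3 of 4 in the table) and endothelium (2 of 3) summed to at most 1.08 and 0.55 CPM, and of 5 fibroblast markers *Pdgfra* and *Dcn* were in the table and summed to 22.7 to 40.7 CPM.

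The enzymes lay in tiers of abundance, and between tiers they differed by a larger ratio than any of them did between conditions. Within the middle and lowest tiers some neighbors differed less. Per kilobase of transcript, *Mdh2* was the most abundant in ASP shSCR (184 ± 15.6 CPM per kb, SD, n = 4), followed by *Got2* (123 ± 9.81) and *Mdh1* (74.4 ± 3.79). *Umps* (22.7 ± 3.63), *Got1* (21.0 ± 0.738) and *Cad* (16.7 ± 1.3) formed a middle tier, and *Asl* (8.23 ± 0.284), *Ass1* (8.0 ± 0.577) and *Dhodh* (6.92 ± 0.317) were the lowest. The libraries of *Mdh2*, *Got2* and *Mdh1* did not overlap, in this or any other group. Those of *Umps* overlapped with those of *Got1*, and those of *Asl* with those of *Ass1*, so these neighbors cannot be ordered in ASP shSCR. *Asl* was above *Dhodh* in both shSCR groups by its mean and by its mean the lowest of the 9 in both knockdown groups, at 6.18 ± 0.407 CPM per kb (SD, n = 3) in ASP shGRIN2D and 6.47 ± 0.489 CPM per kb (SD, n = 4) in ASP shDHPS. Its libraries overlapped with those of *Dhodh* in ASP shGRIN2D and not in ASP shDHPS.

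**Figure D1:**
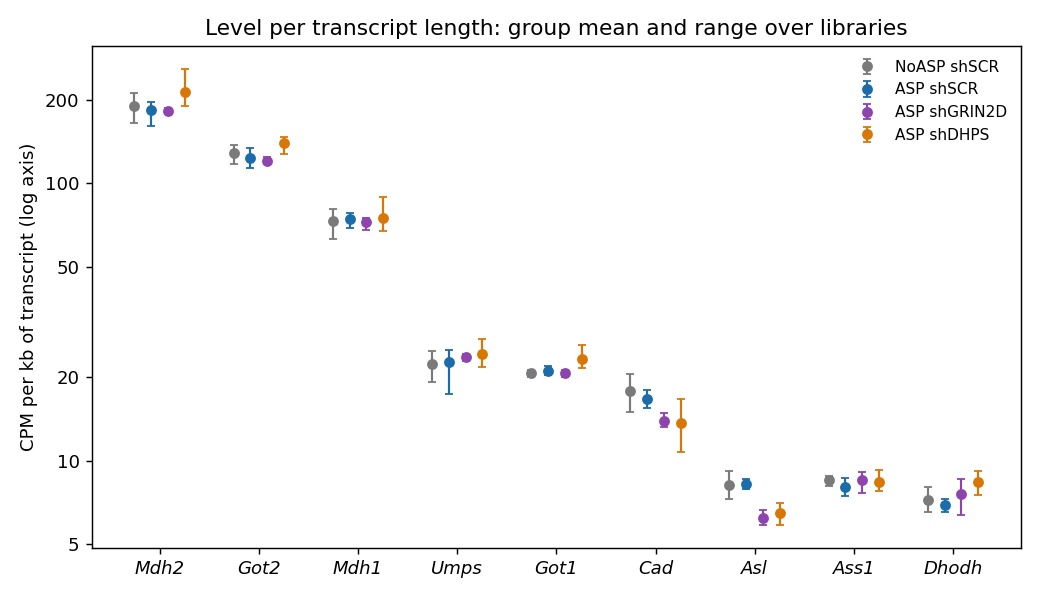
Level of each enzyme gene per kilobase of transcript (CPM per kb, log axis), with the group mean as a point and the lowest and highest library as the ends of the bar (3 or 4 libraries a group). In ASP shSCR the means run from 184 for Mdh2 to 6.92 for Dhodh, and Asl takes the lowest place in both knockdown groups.

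In the cytosolic lysate of these spheroids, the transcripts of the mitochondrial isoforms were thus more abundant than those of the cytosolic ones. The CPM of *Got1* was 13.1% to 14.1% of that of *Got2* as a group mean, and that of *Mdh1* 51.3% to 59.4% of that of *Mdh2*. The ratio of *Got1* to *Got2* stayed between 12.5% and 15% over all libraries. The ratio of *Mdh1* to *Mdh2* was 51.3% ± 0.894 (SD, n = 4) in ASP shDHPS and 59.4% ± 6.33 in ASP shSCR (SD, n = 4 each), without overlap between them (50.1% to 52.1% against 54.1% to 68.1%). In NoASP shSCR it was 48% to 66.2%, which spans that of ASP shDHPS. These CPM ratios are not per length, and they were not tested.

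Comparing the control spheroids with and without aspartate asks whether the transcripts of these enzymes change when aspartate is added to the medium. No difference was called in the main test, which did not pair the libraries. Of the 9 genes, 0 passed an adjusted p of 0.05, 0 had an unadjusted p under 0.05 and 0 passed in DESeq2 (edgeR quasi-likelihood test, adjusted by Benjamini-Hochberg over 19525 genes, of which 0% were called and 424, or 2.17%, had an unadjusted p under 0.05). The log2 fold changes lay between -0.10 for *Cad* and 0.03 for *Mdh1*, 5 below 0 and 4 above it, with standard errors of 0.09 to 0.13. Their median was -0.04, beside 0.001 over all genes. The 95% intervals of all 9 included 0 and together reached from -0.35 (*Cad*) to 0.28 (*Umps*), that is from 0.782 to 1.21 times the level without aspartate. These intervals are not adjusted for the number of genes, and differences within them remain possible. Larger ones can also go uncalled. *Asl* in ASP shGRIN2D, at 0.751 times ASP shSCR, did not pass (edgeR adjusted p = 0.113). The CPM of both groups overlapped for each of the 9 genes, where 2.71% of all genes had groups that did not overlap. Within the 3 pairs of libraries with the same replicate number, *Got2* and *Mdh2* were lower with aspartate each time and none of the 9 was higher each time, beside 21.1% of all genes that moved 1 way in every pair. With the replicate block their log2 fold changes were -0.06 and -0.08 (edgeR adjusted p = 1 for both). A replicate block within the 7 shSCR libraries alone, added after seeing the data, called 64 genes and 0 of the 9.

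*Cad*, whose product uses aspartate directly, measured 106, 129 and 146 CPM in NoASP shSCR replicates 2 to 4 and 112, 110, 128 and 126 CPM in ASP shSCR replicates 1 to 4. The spread among the 3 libraries without aspartate was wider than the difference between the means (127 ± 19.8 and 119 ± 9.53 CPM, SD, n = 3 and 4). *Ass1* measured 13.7, 14.9 and 14.8 CPM without aspartate and 12.6, 14.7, 12.9 and 14.1 CPM with it. For *Ass1* too the groups lay over each other, and the log2 fold change was -0.10 (95% interval -0.34 to 0.15). *Got1*, the cytosolic transaminase, measured 41.3, 43.1 and 43.6 CPM without and 42.2, 43.1, 41.9 and 45.2 CPM with aspartate. All 7 libraries lay within 41.3 to 45.2 CPM, and the 95% interval of the log2 fold change was -0.18 to 0.21.

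**Figure D2:**
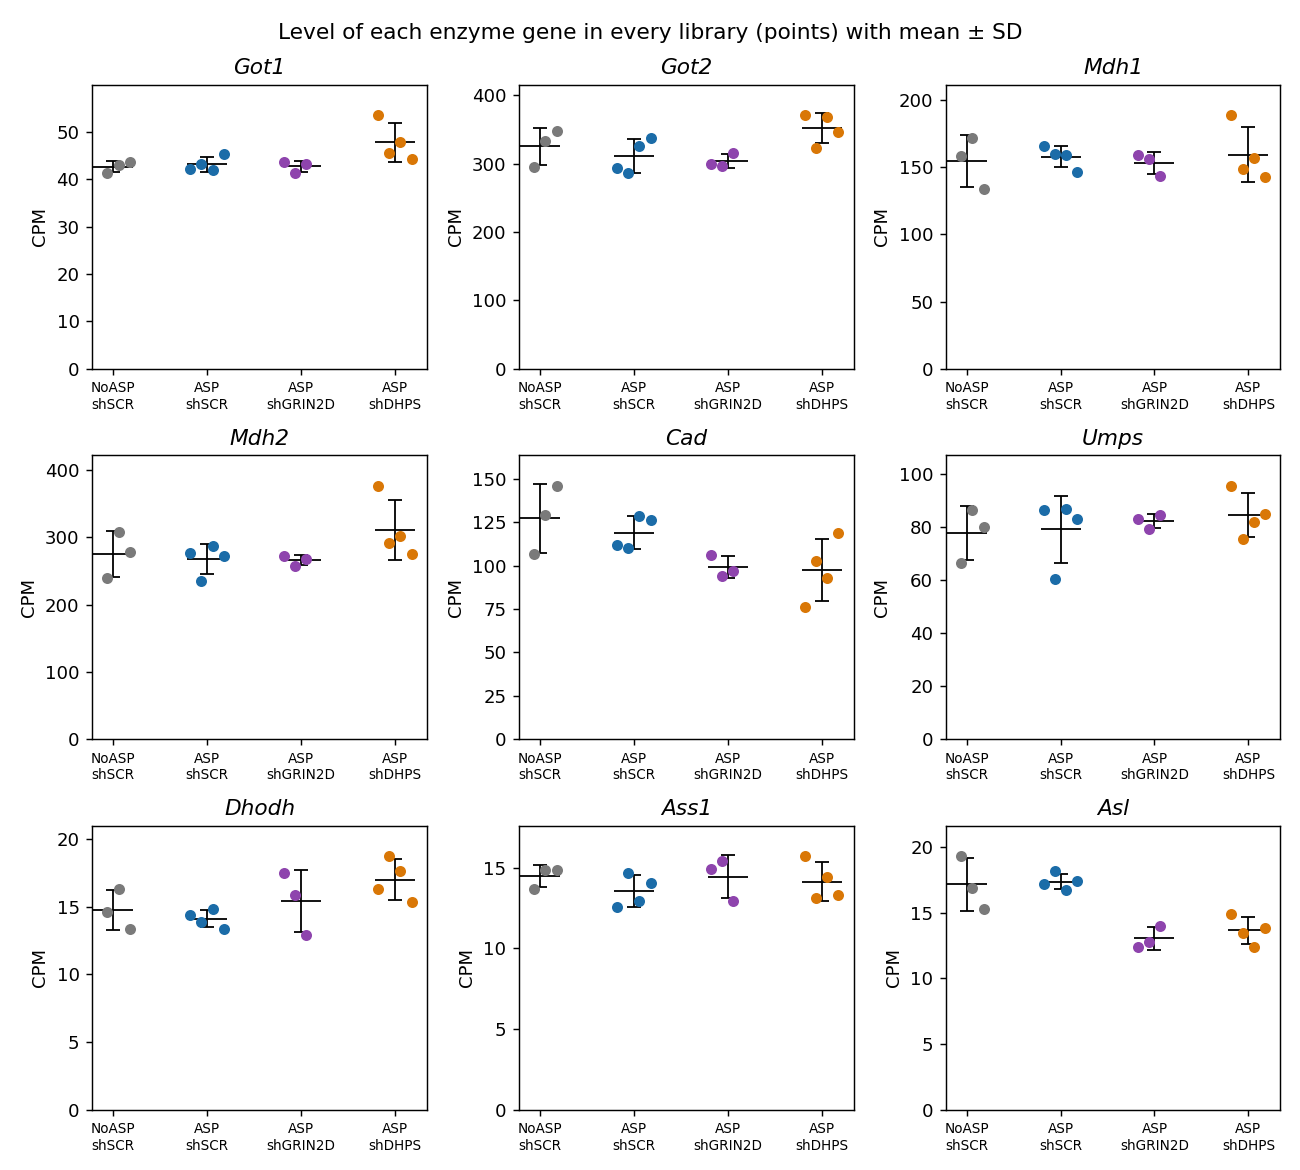
CPM of each enzyme gene in every library (points, in the order of the replicate numbers) by group, with the group mean (long bar) and SD (whiskers). The 7 knockdown libraries of Asl lie at 12.4 to 14.9 CPM, under all 7 shSCR libraries (15.3 to 19.3 CPM), while Got1, Got2, Mdh1 and Mdh2 are highest in ASP shDHPS replicate 1.

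The comparisons with ASP shSCR set cells with a hairpin against *Grin2d* or *Dhps* beside cells with the scrambled hairpin, all with aspartate. Loss of the target, other effects of its hairpin and differences between the polyclonal populations cannot be told apart here. Both comparisons use the same ASP shSCR libraries, so their values are given side by side and are not independent of each other. Of the 9 genes, 0 were called in ASP shGRIN2D, where 1.16% of all genes were called, and 0 in ASP shDHPS, where 4.22% were called. At an unadjusted p under 0.05 there were 2 in ASP shGRIN2D (*Cad* and *Asl*) and 5 in ASP shDHPS (*Got2*, *Mdh2*, *Cad*, *Asl* and *Dhodh*), beside 10.4% and 19.3% of all genes. DESeq2 called 1 in each, *Asl*, beside 440 (3.36%) and 1398 (11.0%) of the genes for which it gave an adjusted p. The groups did not overlap for 2 of the 9 genes in ASP shGRIN2D (*Cad* and *Asl*, lower), beside 12.0% of all genes, and for 2 in ASP shDHPS (*Asl* lower, *Dhodh* higher), beside 11.1%. The median log2 fold change was -0.01 in ASP shGRIN2D and 0.09 in ASP shDHPS, beside 0 and 0.005 over all genes. In bulk RNA, fewer cells with a transcript and less of it per cell cannot be told apart.

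**Figure D3:**
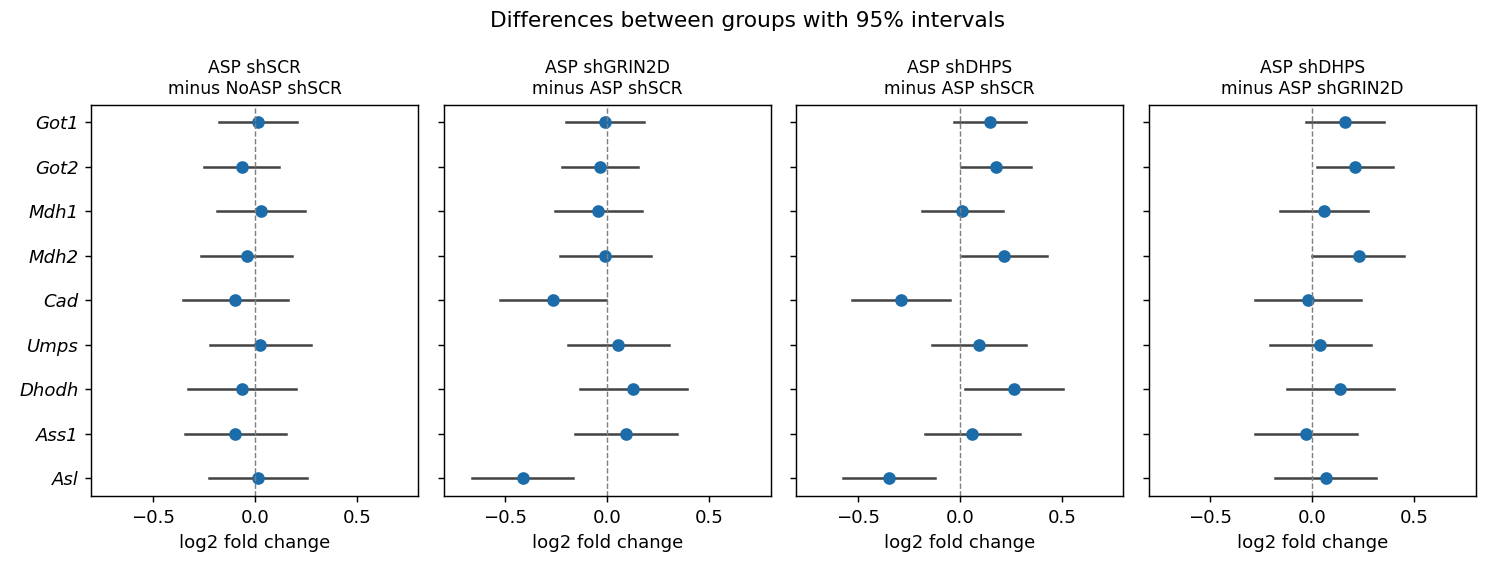
Log2 fold change of each enzyme gene in the 4 comparisons (points, edgeR) with 95% intervals (lines), for which the dashed line marks no change. Intervals that leave out 0 are those of Cad and Asl in ASP shGRIN2D, of Got2, Mdh2, Cad, Dhodh and Asl in ASP shDHPS, and of Got2 and Mdh2 between both knockdowns, and none of these passed the adjusted threshold.

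Of the 4 enzymes of the shuttle, none passed the test in either knockdown. *Mdh2* measured 277, 235, 286 and 272 CPM in ASP shSCR replicates 1 to 4, 272, 258 and 268 CPM in ASP shGRIN2D replicates 1 to 3, and 376, 291, 301 and 276 CPM in ASP shDHPS replicates 1 to 4. ASP shDHPS replicate 1 stood above all others, and of the remaining 3 libraries of that group 2 lay above the highest of ASP shSCR and 1 within its range. The log2 fold change of *Mdh2* in ASP shDHPS was 0.22 (standard error 0.10, edgeR adjusted p = 0.237) and was 0.11 without that library. *Got2* measured 294, 287, 326 and 338 CPM in ASP shSCR and 371, 323, 368 and 346 CPM in ASP shDHPS, with 3 of the 4 ASP shDHPS libraries above the highest ASP shSCR library and 1 within its range. Its log2 fold change was 0.18 (standard error 0.08, edgeR adjusted p = 0.244), and in ASP shGRIN2D, at 300, 297 and 315 CPM, it was -0.03.

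For the cytosolic pair the differences were smaller. *Got1* measured 53.5, 45.4, 47.8 and 44.4 CPM in ASP shDHPS, of which 3 lay above the highest ASP shSCR library (45.2 CPM) and 1 inside that group's range. The log2 fold change was 0.15 (95% interval -0.03 to 0.33, edgeR adjusted p = 0.346), and 0.09 without ASP shDHPS replicate 1. *Mdh1* measured 166, 160, 159 and 147 CPM in ASP shSCR and 189, 149, 157 and 143 CPM in ASP shDHPS. Without its replicate 1, every ASP shDHPS library of *Mdh1* lay under the 3 highest of ASP shSCR, and the log2 fold change turned from 0.01 to -0.08. Of the 9 genes, *Mdh1* also had the highest p in the test of any difference among the 4 groups (edgeR F-test, adjusted p = 0.974).

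ASP shDHPS replicate 1, which lay at an end of the first principal component, was also at an end of its group for most of these enzymes. It was the highest of its group for *Got1*, *Got2*, *Mdh1*, *Mdh2*, *Umps*, *Ass1* and *Asl*, and the lowest for *Cad*. For *Got2* the next library was close (371 and 368 CPM). The share of all genes for which this library was highest or lowest is not given here. Between both knockdowns, 0 of the 9 genes were called in edgeR (2.82% of all genes were) and in DESeq2 (6.83% of the genes it adjusted). At an unadjusted p under 0.05 there were 2, beside 14.8% of all genes. Every ASP shDHPS library lay above every ASP shGRIN2D library for 3 genes of the shuttle, *Got1*, *Got2* and *Mdh2*, beside 15.1% of all genes with groups that did not overlap in either direction. On the log2 scale the differences were 0.16, 0.21 and 0.23 (standard errors 0.09, 0.09 and 0.11, edgeR adjusted p = 0.425, 0.258 and 0.333). The intervals of all 9 together reached from -0.28 (*Ass1* and *Cad*) to 0.45 (*Mdh2*).

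The pyrimidine enzymes lay on different sides of ASP shSCR, and none passed the test. *Cad*, the first of the pathway, measured 112, 110, 128 and 126 CPM in ASP shSCR, 106, 93.9 and 96.9 CPM in ASP shGRIN2D, and 76.4, 102, 92.7 and 119 CPM in ASP shDHPS. Every ASP shGRIN2D library lay under the lowest ASP shSCR library, and in ASP shDHPS 3 did and replicate 4 did not. The log2 fold changes were -0.26 (standard error 0.13, 95% interval -0.53 to -0.004, edgeR adjusted p = 0.466) in ASP shGRIN2D and -0.29 (0.12, -0.53 to -0.05, edgeR adjusted p = 0.174) in ASP shDHPS. The latter rested on single libraries. It was -0.40 and passed the test without ASP shDHPS replicate 4 (edgeR adjusted p = 0.0496), and -0.19 without ASP shDHPS replicate 1 (edgeR adjusted p = 0.371).

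*Dhodh*, which follows *Cad* in the pathway, measured 14.4, 13.9, 14.8 and 13.4 CPM in ASP shSCR and 16.3, 18.7, 17.7 and 15.4 CPM in ASP shDHPS. All 4 ASP shDHPS libraries lay above all 4 of ASP shSCR, and the log2 fold change of 0.27 (standard error 0.12, 95% interval 0.02 to 0.51) did not pass the test (edgeR adjusted p = 0.213). Against NoASP shSCR there was overlap, since replicate 3 of that group measured 16.3 CPM. In ASP shGRIN2D, *Dhodh* measured 17.5, 15.9 and 12.9 CPM and so spanned from below to above ASP shSCR. Its counts were low (170 to 339 a library).

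*Umps*, the last enzyme before UMP, measured 86.7, 60.5, 86.8 and 83.0 CPM in ASP shSCR, 83.0, 79.3 and 84.6 CPM in ASP shGRIN2D and 95.6, 75.5, 81.9 and 85.2 CPM in ASP shDHPS. ASP shSCR replicate 2 was far below the other 3 of its group, and NoASP shSCR replicate 2, at 66.6 CPM, was below the others of its own (86.6 and 80.0 CPM). The log2 fold changes were 0.05 in ASP shGRIN2D and 0.09 in ASP shDHPS with all libraries, and -0.06 and -0.01 without replicate 2 of both shSCR groups. *Mdh2* had the same pair of low libraries, 235 and 239 CPM against 272 to 307 CPM in the 5 other shSCR libraries. *Cad* was lower there as well (106 and 110 against 112 to 146 CPM) and *Asl* higher (18.2 and 19.3 against 15.3 to 17.4 CPM). These libraries also lay apart on the first principal component, over all genes. The share of all genes with such a split is not given, so it is not a trait shown for these enzymes in particular.

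*Mdh2* and *Umps* were the only enzymes of the 7 with a RefSeq promoter entry (GRCm38.p6, 300 bases around the start, both strands searched) that held TGACGTCA, the full cAMP-response element to which CREB binds. It is present in 1.79% of 32851 promoters. The 30 bases around each are shown because CREB lies downstream of the NMDA receptor in the study's question, with the element in capitals. The *Mdh2* stretch is chr5:135778511-135778540 on the plus strand, with the element 127 bases before the start, and the *Umps* stretch is chr16:33967017-33967046 on the minus strand, with the element at base 4 of the transcript.
Mdh2: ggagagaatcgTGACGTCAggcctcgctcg
Umps: ggacttctgggTGACGTCAcgggccccaag
Neither gene was called in ASP shGRIN2D, where the log2 fold changes were -0.01 for *Mdh2* (95% interval -0.23 to 0.22) and 0.05 for *Umps* (-0.19 to 0.30), nor with aspartate. The shorter form TGACG, which lies inside the full element, occurred on both strands of these elements and at 2 places in *Cad* (20.8% of promoters hold it). The E-box CACGTG, a Myc-binding sequence, occurred in *Ass1* alone (7.15% of promoters), and *Asl* and *Dhodh* had no entry.

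The largest difference among the 9 enzymes was that of *Asl*, the argininosuccinate lyase. It measured 19.3, 16.9 and 15.3 CPM in NoASP shSCR, 17.2, 18.2, 16.7 and 17.4 CPM in ASP shSCR, 12.4, 12.7 and 14 CPM in ASP shGRIN2D and 14.9, 13.5, 12.4 and 13.8 CPM in ASP shDHPS. Each of the 7 knockdown libraries lay under each of the 7 shSCR libraries. *Asl* was the only 1 of the 9 genes of which this was true in either direction, and it is true of 1.24% of all genes. The 7 shSCR libraries share the scrambled hairpin, so this split also divides the cell populations. In the test of any difference among the 4 groups, *Asl* passed (edgeR F-test, F = 6.77, Benjamini-Hochberg adjusted p = 0.049) and was the 1 enzyme called, beside 4.41% of all genes. This call was narrow. It held without NoASP shSCR replicate 4 or ASP shDHPS replicate 1, and was lost when any of the other 12 libraries was left out (adjusted p up to 0.134) and when replicate 2 of both shSCR groups was left out together (0.134). With all libraries, DESeq2 (likelihood-ratio test, adjusted p = 0.00487) and the replicate block (edgeR F-test, adjusted p = 0.0191) called *Asl*. A robust prior did not (edgeR F-test, adjusted p = 0.0504).

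By pair, *Asl* did not pass. The log2 fold change was -0.41 in ASP shGRIN2D (standard error 0.12, 95% interval -0.66 to -0.17, edgeR adjusted p = 0.113) and -0.35 in ASP shDHPS (0.11, -0.57 to -0.12, edgeR adjusted p = 0.0752); the levels were 0.751 and 0.786 times those of ASP shSCR. Leaving out single libraries kept these between -0.47 and -0.38 and between -0.39 and -0.30, with no call in any of the 14 fits. DESeq2 called both (adjusted p = 0.0302 and 0.0246). Between both knockdowns the log2 fold change was 0.07 (95% interval -0.18 to 0.31). The counts behind *Asl* were 202 to 393 a library. The summed epithelial markers given above were also lower in each knockdown library than in each shSCR library, and their part in the difference of *Asl* was not tested.

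The annotated 3′ UTR of *Asl* (301 bases, GENCODE M21) held the 7-base run TCATGAA at 1 place and those of the other 8 enzymes at none. No function is assigned to this run here. It lay in the 3′ UTR of 11% of 13914 genes, whose lengths were not matched to that of *Asl*. A match in 1 of 9 genes is about that share, so it does not mark out *Asl*. The run was chosen with earlier results of these data known, so the match is a description only. Its part in the level of *Asl* was not tested. *Ass1*, the partner of *Asl* one step before, had a different pattern. It measured 14.9, 15.4 and 12.9 CPM in ASP shGRIN2D and 15.7, 13.1, 14.4 and 13.3 CPM in ASP shDHPS, which overlapped with ASP shSCR in both knockdowns, and its log2 fold changes were 0.09 (95% interval -0.16 to 0.34) and 0.06 (-0.17 to 0.29).

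Over the 14 libraries, which come from 4 groups and differ in depth, the log2 CPM of *Mdh2* ran most like that of *Got1*, *Umps* and *Got2*. *Mdh2* correlated with *Got1* (Pearson r 0.802), *Umps* (0.775) and *Got2* (0.766), and *Got1* with *Got2* (0.745), while *Umps* was less like *Got2* (0.59) and *Got1* (0.422). *Mdh1* was less like its mitochondrial counterpart *Mdh2* (0.50) and unlike *Got2* (-0.003). *Asl* and *Dhodh* ran most against each other of the 36 pairs (-0.573), followed by *Cad* with *Got1* (-0.558) and *Cad* with *Mdh1* (-0.528). *Mdh2*, *Got1*, *Got2* and *Umps* were all highest of their group in ASP shDHPS replicate 1. *Mdh2* and *Umps* were both low in replicate 2 of both shSCR groups. The part of these libraries in the correlations was not tested.

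Among 9860 genes of at least 5 CPM, the most similar over the 14 libraries to *Mdh2* were *Tuba1c* (r 0.966), a tubulin, and *Emd* (0.956), a protein of the nuclear envelope, and to *Got2* they were *Ccn2* (0.957), a secreted matrix-associated protein, and *Lins1* (0.945). *Asl* had *Cxcr3* (0.93), a chemokine receptor, among its 2 most similar genes, and *Cad* was most like *Dnmt1* (0.913), the maintenance DNA methyltransferase, and *Vav2* (0.909), a guanine nucleotide exchange factor. *Umps* was most like the RNA-binding proteins *Hnrnpab* (0.937) and *Elavl1* (0.936), and *Dhodh* was most like *Rpusd4* (0.903), a pseudouridine synthase. *Got1* was closest to *Litaf* (0.924) and *Anxa5* (0.884), and *Mdh1* to *H3f3b* (0.924), a histone gene, and *Prdx2* (0.912), a peroxiredoxin. *Ass1* had the weakest such neighbors, *Zscan12* (0.813) and *Yipf6* (0.742). Each neighbor was picked as among the most similar of 9860 genes, and a background r is not given.

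Around these enzymes, 79 genes of neighboring pathways were measured, and few were called. With aspartate 0 of 79 passed (edgeR, and 0 in DESeq2), in ASP shGRIN2D 1, in ASP shDHPS 2 and between both knockdowns 1, beside the shares of all genes given above. DESeq2 called 1, 6 and 3 of the 79 in these comparisons. The 3 mitochondrial carriers of the shuttle, 9 genes of the urea cycle and arginine use and 22 genes of the TCA cycle and pyruvate entry had 0 calls in each of the 4 comparisons. Of 12 other enzymes that make or use aspartate 1 was called, of 7 paralogs and glutamate enzymes 1, of 17 genes of pyrimidine synthesis after UMP and salvage 1, and of 13 genes of purine synthesis 1, the same gene as in the first list. The median log2 fold change of the 79 genes was -0.001 with aspartate, -0.02 in ASP shGRIN2D and 0.03 in ASP shDHPS. In ASP shDHPS the medians of the lists ran from -0.46 for the urea cycle and arginine, most of whose 9 genes were under 5 CPM, to 0.10 for the TCA cycle, and the 3 carriers lay on both sides of 0 (-0.25 to 0.20).

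*Adss1*, which condenses aspartate with IMP on the way to AMP, fell in ASP shDHPS. It measured 18.3, 23.4, 14.1 and 18.1 CPM in ASP shSCR and 9.19, 12.9, 12.2 and 11.4 CPM in ASP shDHPS, groups that did not overlap. NoASP shSCR measured 23.2, 12.5 and 11.95 CPM, and so overlapped with ASP shDHPS. The log2 fold change was -0.70 (standard error 0.19, edgeR adjusted p = 0.0334). ASP shSCR replicate 2 was the highest of its group, and without it the log2 fold change was -0.56 (edgeR adjusted p = 0.123). The call was also lost without ASP shSCR replicate 1 or 4 or ASP shDHPS replicate 1, 3 or 4 (log2 fold changes -0.73 to -0.61, adjusted p 0.0536 to 0.0974), and with the robust prior (-0.70, adjusted p 0.053).

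*Upp1*, uridine phosphorylase, which splits uridine in pyrimidine salvage, rose in ASP shDHPS. It measured 25.3, 27.7, 22.9 and 23.9 CPM in ASP shSCR, 18.3, 20.9 and 18.9 CPM in ASP shGRIN2D and 41.9, 30.2, 33.0 and 32.2 CPM in ASP shDHPS. The 3 groups did not overlap, with ASP shDHPS the highest and ASP shGRIN2D the lowest. The log2 fold change was 0.46 against ASP shSCR (standard error 0.11, edgeR adjusted p = 0.0157) and 0.83 against ASP shGRIN2D (0.12, edgeR adjusted p = 0.000249). The value for ASP shGRIN2D against ASP shSCR, -0.37, did not pass (edgeR adjusted p = 0.193). Without ASP shDHPS replicate 1, the highest library, the change against ASP shSCR was 0.35 and the call was lost (edgeR adjusted p = 0.0522), while that against ASP shGRIN2D was called in all 14 fits.

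*Glul*, glutamine synthetase, fell in ASP shGRIN2D. It measured 32.5, 39.6, 31.5 and 42.2 CPM in ASP shSCR, 23.5, 23.1 and 22.4 CPM in ASP shGRIN2D and 32.7, 30.4, 31.1 and 31.7 CPM in ASP shDHPS. The 3 ASP shGRIN2D libraries lay close together and below all others of these groups. The log2 fold change was -0.66 (standard error 0.13, edgeR adjusted p = 0.00732), and the call was lost without ASP shGRIN2D replicate 3 (-0.64, edgeR adjusted p = 0.0591). In ASP shDHPS it was -0.21 and did not pass (edgeR adjusted p = 0.329).

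**Figure D4:**
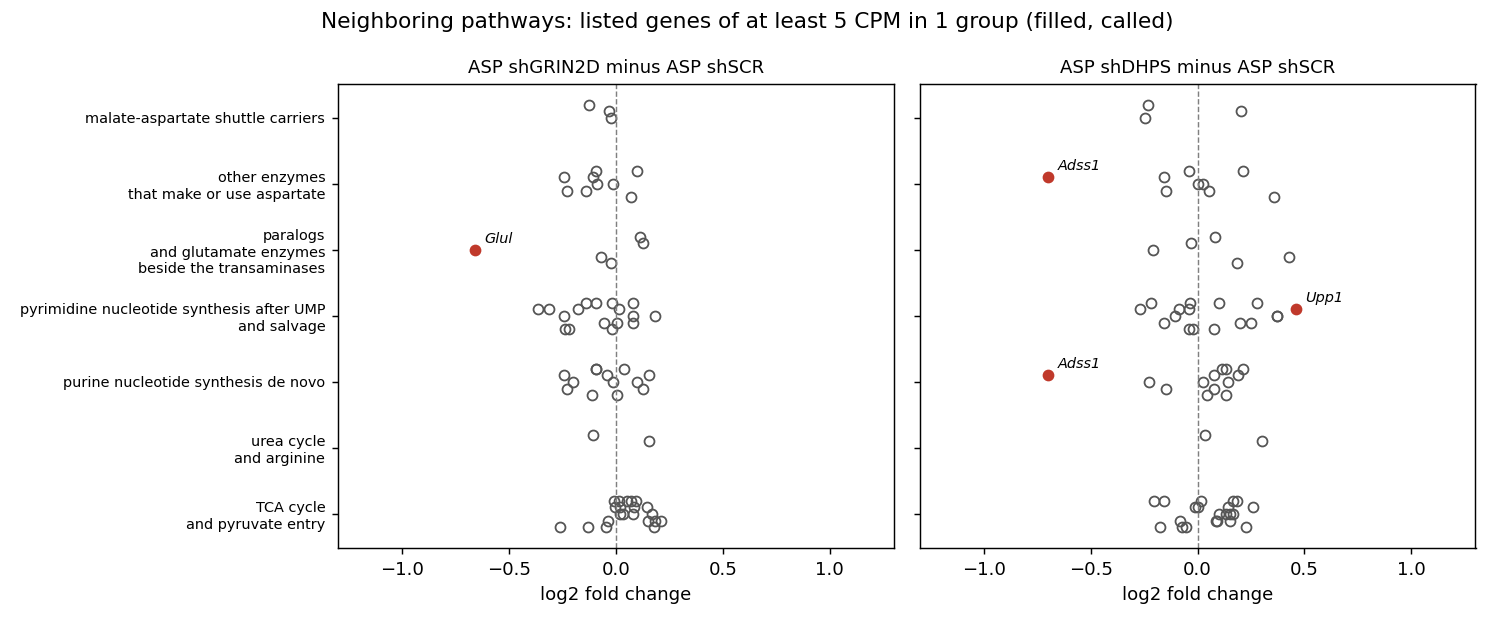
Log2 fold change of the genes of 7 neighboring lists with at least 5 CPM in 1 of the groups compared, in ASP shGRIN2D (left) and ASP shDHPS (right) against the same ASP shSCR libraries. Each point is a gene and filled points passed the test (Glul at -0.66 on the left, Adss1 at -0.70, which stands in 2 lists, and Upp1 at 0.46 on the right).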

How the data were processed

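The 14 libraries were made from polyadenylated RNA of cytosolic lysates with a stranded kit. Groups and replicate numbers came from the sample descriptions. The deposited table holds expected counts, estimated by the authors with Salmon (1.4.0) from reads trimmed by Trim Galore (0.6.6) and mapped by STAR (2.6.1) to GRCm39, then rounded and limited to 19525 expressed genes. Salmon divides reads among near-identical copies by estimation, so genes with close copies are less certain. The authors' tables of fold changes, p-values and gene set scores were not used. The study's methods name independent spheroid pellets, and the labels do not say what a replicate number stands for.

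These counts were tested by edgeR 4.0.16 under R 4.3.3 (TMM, quasi-likelihood F-test, all 14 libraries, group as the only term), without a further filter, with Benjamini-Hochberg adjustment over the whole table. Called means an adjusted p under 0.05. Intervals are 95% intervals of the coefficient. CPM used the TMM factors (0.984 to 1.02), and correlations used log2 CPM with a prior count of 2. At 12731123 to 23231378 counts a library, the enzymes had 170 to 7163 counts, and counting error was relatively largest for *Asl*, *Ass1* and *Dhodh* (170 to 393 counts). Replicates were not duplicates (chi-square per degree of freedom 7.69 to 41.8 in 18 pairs). Transcript lengths and 3′ UTRs came from the principal transcripts of GENCODE M21 (GRCm38), whose coordinates were not used for the counts.

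The members, the lists and the tests were chosen with earlier results of these data known. Named genes were the 9 enzymes, up to 5 called genes of each list with at least 5 CPM in the higher group, the 2 most similar genes of each enzyme (for *Asl* and *Dhodh*, 1 of the 2 is not reported here) and both silenced genes. *Adss1* was matched through an older symbol. *Ddo*, *Got1l1*, *Mdh1b*, *Cps1*, *Otc* and *Nags* were not analysed here.

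The alternatives were DESeq2 1.42.0, RLE size factors, library size alone, filterByExpr (13421 genes), a robust prior, a fit limited to the groups compared, a replicate block, glmTreat against 1.5-fold, leaving out each library in turn and leaving out replicate 2 of both shSCR groups. The block within the 7 shSCR libraries was added after seeing the data. Deviations from the group means of same-numbered ASP shSCR and NoASP shSCR libraries correlated across 10224 genes with r of 0.514, 0.287 and 0.203. Of these 6 libraries, 6 deviated most like the library of their own number. This is a hint of pairing from the data, which the labels do not state, and the main test did not pair the libraries. In the other comparisons not every pair was over 0.1.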

Additional observations from a re-analysis of the deposited data

Results flagged for a closer look

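*Umps* in ASP shSCR replicate 2 (60.48 CPM) lay far below the other 3 libraries of its group (83.0 to 86.8 CPM), a gap of 0.853 of the group's whole range. It was the 1 such value in 24 sets of 4 libraries examined, in which chance gives about 1 in 20. The 2 knockdowns differed for *Upp1*, with a log2 fold change between ASP shDHPS and ASP shGRIN2D of 0.827 (adjusted p = 0.000249 in the edgeR quasi-likelihood test). It was higher in 4 of 4 ASP shDHPS libraries than in each of the 3 of ASP shGRIN2D.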

How the results depend on the processing

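With aspartate and between both knockdowns, 0 of the 9 enzymes were called under any alternative. In ASP shGRIN2D, DESeq2 called 1 (*Asl*), and no other alternative called any (*Asl* without single libraries, adjusted p 0.0746 to 0.41). In ASP shDHPS, DESeq2 and filterByExpr called 1 each (*Asl*), the replicate block called 2 (*Asl* and *Cad*), and leaving out single libraries gave 0 to 1. For any difference among the 4 groups, the 1 call of *Asl* became 0 with the robust prior and 2 with the replicate block (*Asl* and *Cad*). Leaving out single libraries gave 0 to 1. Without both shSCR number 2 libraries the 1 call was *Cad* in place of *Asl*. For this test the share of all genes called under the alternatives is not given, so these counts cannot be set against it.

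Over all genes, 0 were called with aspartate, 2 with the replicate block, 64 with that block in the 7 shSCR libraries alone, and 0 to 1 without single libraries. In ASP shGRIN2D 226 were called, 440 by DESeq2, 374 with only the groups compared, 611 with the replicate block, 8 against 1.5-fold, and 86 to 324 without single libraries. In ASP shDHPS 824 were called, 1398 by DESeq2, 2150 with the replicate block, 27 against 1.5-fold, and 412 to 948 without single libraries. Between both knockdowns 550 were called, 920 by DESeq2, 1468 with the replicate block, 849 without both shSCR number 2 libraries, 48 against 1.5-fold, and 209 to 708 without single libraries. With aspartate the block changed no call of an enzyme. In the other comparisons, r was between -0.117 and 0.258 over the pairs. There 1 of 6, 5 of 8 and 2 of 6 libraries deviated most like the library of their own number. In ASP shDHPS against ASP shSCR, r was 0.258, 0.195, 0.201 and 0.04. The labels do not say what a shared number means, so these libraries may or may not be paired. Of the 79 genes of neighboring pathways, the 1, 2 and 1 called in ASP shGRIN2D, in ASP shDHPS and between both knockdowns became 3, 9 and 8 with the replicate block and 0 to 1, 0 to 4 and 1 to 4 without single libraries.

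Enzymes with values near 0 changed sign. With aspartate, the replicate block gave log2 fold changes of -0.00519 for *Got1*, -0.0136 for *Mdh1* and -0.0126 for *Umps*, the block in the 7 shSCR libraries -0.0236 for *Umps*, and leaving out both shSCR number 2 libraries -0.0113 for *Got1*. Leaving out those libraries gave *Umps* -0.0561 in ASP shGRIN2D and -0.0109 in ASP shDHPS, and library size alone gave *Mdh1* -7.3e-05 in ASP shDHPS. Without single libraries, the range with aspartate was -0.0594 to 0.108 for *Asl*, -0.209 to 0.014 for *Cad*, -0.129 to 0.015 for *Dhodh*, -0.00896 to 0.0302 for *Got1*, -0.0637 to 0.113 for *Mdh1*, -0.131 to 0.0474 for *Mdh2* and -0.0715 to 0.138 for *Umps*. In ASP shGRIN2D it was -0.0291 to 0.0108 for *Got1*, -0.0725 to 0.00709 for *Got2*, -0.0665 to 0.0256 for *Mdh2* and -0.0555 to 0.102 for *Umps*, and in ASP shDHPS -0.0777 to 0.0625 for *Mdh1* and -0.0159 to 0.144 for *Umps*. Between both knockdowns it was -0.102 to 0.0196 for *Ass1*, -0.131 to 0.0788 for *Cad*, -0.0337 to 0.106 for *Mdh1* and -0.0249 to 0.0897 for *Umps*. The cause was not tested. At this depth and number of libraries, differences as small as most of these cannot be told from 0.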
